A study of Homo sapiens with 4 samples.

Results

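CAST (ENSG00000153113) encodes calpastatin and lies on the plus strand of chromosome 5. It was described through the rows of the 4 deposited event lists that carry its gene identifier. These rows held 1180 of the 287868 distinct events in the series. The gene was chosen by its listed events, some of which were in both knockdown lists and neither control list, so every comparison of CAST between the treatments below is a description and carries no test. Cells of the human hepatoma line Huh7 were transfected by lipofection either with a negative control siRNA (siNC, 2 libraries) or with an siRNA against STAMBPL1 (siSTAMBPL1, 2 libraries). STAMBPL1 is a deubiquitinating enzyme related to STAMBP. Full-length cDNA from total RNA of each sample was sequenced as PacBio long reads, and each library has 1 list of alternative splicing events on build hg38. The labels do not say whether replicates were separate cultures, so the spread between them may be technical.

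Calpastatin is the endogenous inhibitor of the calpains, cysteine proteases that calcium activates and that cut cytoskeletal and signalling proteins. The protein has an N-terminal leader, domain L, followed by repeated inhibitory domains that each can block a calpain. Mammalian calpastatin genes have several promoters, and their first exons and skipped exons give proteins that differ mainly in the N-terminal part.

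An event sets 2 forms of a gene against each other, such as an exon included or skipped, and names the transcripts with each form. The transcripts are Ensembl entries or models whose identifiers begin with PB, the prefix of long-read models. The lists hold no read numbers, so a model counts once however many molecules it stands for. Numbers of models are therefore no expression level, and intervals on their shares cover counting error only, with models taken as independent. In the order siNC replicate 1, siNC replicate 2, siSTAMBPL1 replicate 1 and siSTAMBPL1 replicate 2, which 4 values given together follow throughout, the libraries had 140317, 142215, 119505 and 94432 events. They named 32307, 32750, 25463 and 17584 PB models, so the siSTAMBPL1 lists were the shorter ones. STAMBPL1 itself had 3, 6, 1 and 1 events in that order, which is no measure of its RNA level. Of 9 hepatocyte markers, HNF4A alone had events under a matched symbol, 8, 6, 0 and 4 in the same order. Of 6 markers of other cell types, KRT7 alone did, with 27, 38, 19 and 9. An expressed gene can have no event or no matched symbol, so these lists cannot check the cell identity.

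Nearly all PB models of CAST began with 1 of 3 first exons. First exon A ended at position 96662497 and first exon B at 96663166, and both were joined to the exon that starts at 96675539. First exon C ended at 96702915 and was joined to the exon that starts at 96722639. Models from C therefore lacked the exons of 63 and 72 bases that follow A and B. The RefSeq promoter windows of A and B are shown because all but 1 of the PB model starts in A and all in B fell inside them. The remaining start, of 1 model in siSTAMBPL1 replicate 1, lay in a RefSeq window further upstream, chr5:96661787-96662086, which is not printed. Capitals mark each base at which at least 1 PB model began, over the 4 libraries. The A window is chr5:96662126-96662425 and the B window chr5:96662775-96663074, both on the plus strand of GRCh38.p14.
First exon A: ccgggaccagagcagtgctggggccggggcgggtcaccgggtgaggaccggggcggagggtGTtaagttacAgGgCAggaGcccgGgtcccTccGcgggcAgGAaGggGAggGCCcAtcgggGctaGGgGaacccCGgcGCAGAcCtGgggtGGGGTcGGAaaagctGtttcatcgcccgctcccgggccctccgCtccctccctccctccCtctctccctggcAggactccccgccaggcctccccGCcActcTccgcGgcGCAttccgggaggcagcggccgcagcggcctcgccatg
First exon B: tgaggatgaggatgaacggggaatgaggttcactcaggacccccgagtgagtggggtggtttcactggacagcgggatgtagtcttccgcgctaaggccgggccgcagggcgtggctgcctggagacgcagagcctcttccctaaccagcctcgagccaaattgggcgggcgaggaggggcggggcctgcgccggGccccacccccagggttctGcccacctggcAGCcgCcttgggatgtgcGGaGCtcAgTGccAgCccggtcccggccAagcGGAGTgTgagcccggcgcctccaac

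The A window held 53 distinct starts of 116 models and the B window 22 starts of 42 models. Both windows were rich in G and C, at 74.3% in A and 68.7% in B, against a median of 58.7% over 35116 RefSeq promoter windows of the same length. They held 27 and 22 CG dinucleotides. The window further upstream had 47.3% G and C, 16 CG dinucleotides, 0 matches of GGGCGG or CCGCCC, 1 of TATAAA and 1 of CCAAT. The letters GGGCGG, the core of the GC box, occurred 2 times in each window on the plus strand. GGGCGG or its reverse complement CCGCCC was found in 15786 of all 35116 windows. TATAAA, the TATA box letters, and its reverse complement TTTATA were in neither printed window and in 11.5% of all windows. CCAAT was found once in B, on the minus strand as ATTGG, and not in A, and 34.6% of all windows held it on either strand. In B it shared 2 bases with one of the GGGCGG matches. A match is a description of letters and no evidence of binding. RNA polymerase II prefers to begin at a purine that follows a pyrimidine. In A, 19 of 53 starts, 35.8%, had that pair, against 16.7% of the 204 positions between the first and the last start. In B, 8 of 22 starts, 36.4%, had it, against 21.8% of 87 positions. By models, 65 of 116 in A and 17 of 42 in B began at such a pair. The start of a model was not shown to be the base where transcription began.

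Starts were scattered within each first exon, and most were seen in 1 library. PB models began at 108 distinct positions, of which 70 were used in 1 library and 6 in all 4. First exon A had 54 starts over 315 bases, B had 22 over 87 bases and C had 29 over 146 bases. None of the A starts equalled an Ensembl start, while 4 of the B starts and 4 of the C starts did. The A starts 96662202 and 96662238 were, however, directly beside the Ensembl starts 96662203 and 96662237. Models at an Ensembl start were 0 of 117 in A, 15 of 42 in B and 51 of 104 in C. The start with the most models of all was 96702806 in C, an Ensembl start. It had 7, 4, 7 and 7 models in siNC replicates 1 and 2 and siSTAMBPL1 replicates 1 and 2. In A the start with the most models was 96662376, the RefSeq start, with 7, 7, 4 and 2. In B it was 96663025, a RefSeq and Ensembl start, with 3, 3, 1 and 2. These leading starts were listed in every library. By contrast, the start at 96662226 in A had 6 models in siNC replicate 1, 0 in siNC replicate 2, 1 in siSTAMBPL1 replicate 1 and 0 in siSTAMBPL1 replicate 2. The start at 96702808 in C had 0, 2, 0 and 5, and was listed in 1 replicate of each treatment. The plot of starts shows the tight cluster in C and the wider spread in A.

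**Figure D1:**
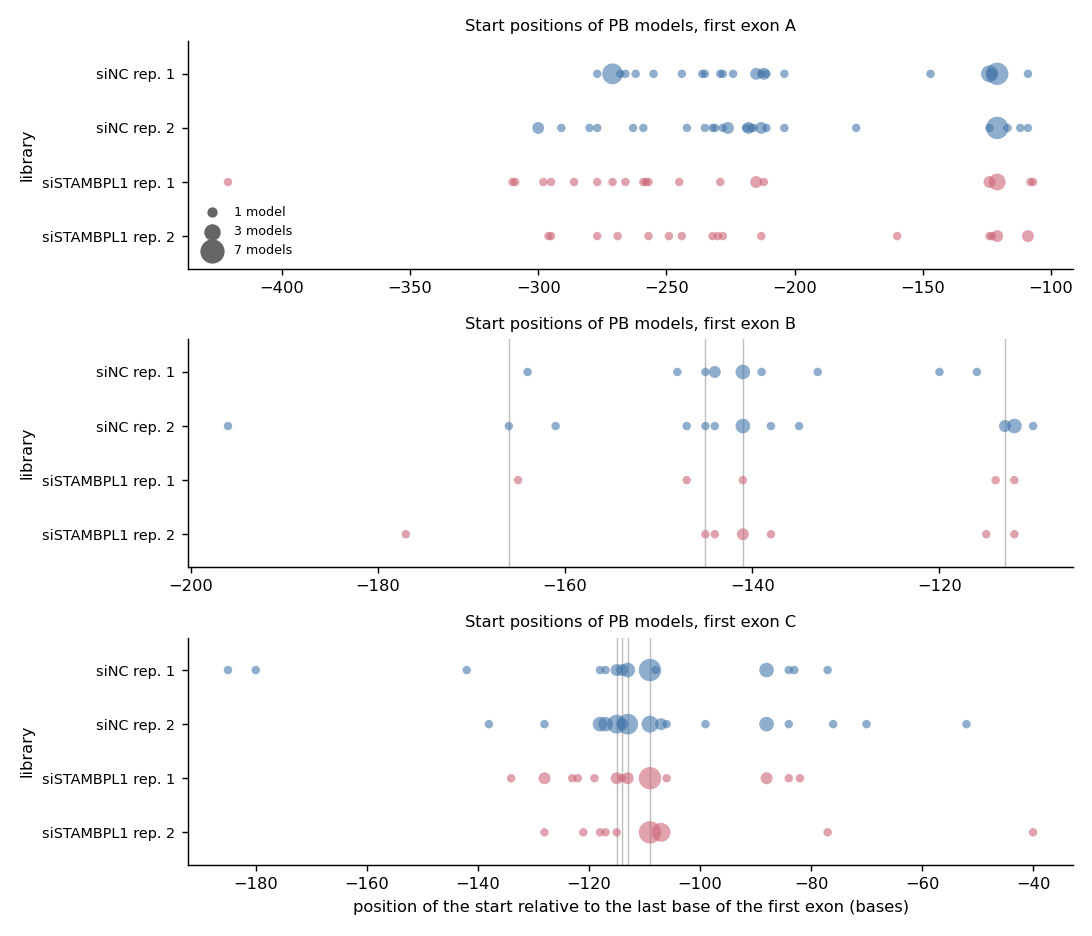
Start of each CAST PB model, in bases relative to the last base of its first exon (horizontal axis), by library (vertical axis), for first exons A, B and C. Dot area is proportional to the number of models, blue is siNC and red is siSTAMBPL1, and grey lines are starts used here that equal an Ensembl start, 0 in A, 4 in B and 4 in C.

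Each pair of starts from 2 first exons that share the next exon is an event of its own, so the scattered starts multiplied the events of CAST. Of the 1180 distinct events, 1116, or 94.6%, were alternative first exon events. Of these, 820, or 73.5%, set a start in A against a start in B. First exon events were 92.7%, 92.6%, 90.1% and 91.5% of the CAST events in the 4 libraries, against 40.7%, 41.1%, 39.3% and 37.0% of all events there. With first exon events reduced to their splice junctions, 83 events remained, 19 of them at first exons. Among 12300 gene identifiers CAST ranked at number 3 by distinct events, and it had the most PB models of any gene in each library.

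CAST had 439 events in siNC replicate 1, 605 in siNC replicate 2, 294 in siSTAMBPL1 replicate 1 and 281 in siSTAMBPL1 replicate 2. Both siSTAMBPL1 libraries were below both siNC libraries. The means were 522 ± 117 (SD, n = 2) and 287.5 ± 9.19 (SD, n = 2), a ratio of 0.551. The same order, fewer events in both siSTAMBPL1 libraries, held for 25.3% of the 10004 other genes with at least 5 events, and the opposite order for 4.90%. Per 1000 events of the library, CAST had 3.13, 4.25, 2.46 and 2.98. These values also do not overlap between the treatments, at a ratio of 0.736. On this scale the same order held for 14.9% of the 10004 other genes and the opposite order for 22.8%.

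The PB models of CAST numbered 81, 95, 58 and 46. They were fewer in both siSTAMBPL1 libraries, as were those of 32.2% of the 5594 other genes with at least 5 models. Per 1000 PB models of the library they were 2.51, 2.90, 2.28 and 2.62, and the treatments overlapped. The number of PB models in the whole library moved with the treatment in the same direction, and its part in the CAST numbers was not tested. The lists give no cell number, RNA per cell or sequencing depth, so differences in these cannot be told apart either. Events other than first exons numbered 32, 45, 29 and 24, and skipped exon events 17, 23, 17 and 16. The skipped exon numbers of the treatments overlapped. The bar plots show events and models in raw numbers, and the models alone per 1000 models of the library. Events per 1000 events, which did not overlap between the treatments, are not plotted.

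**Figure D2:**
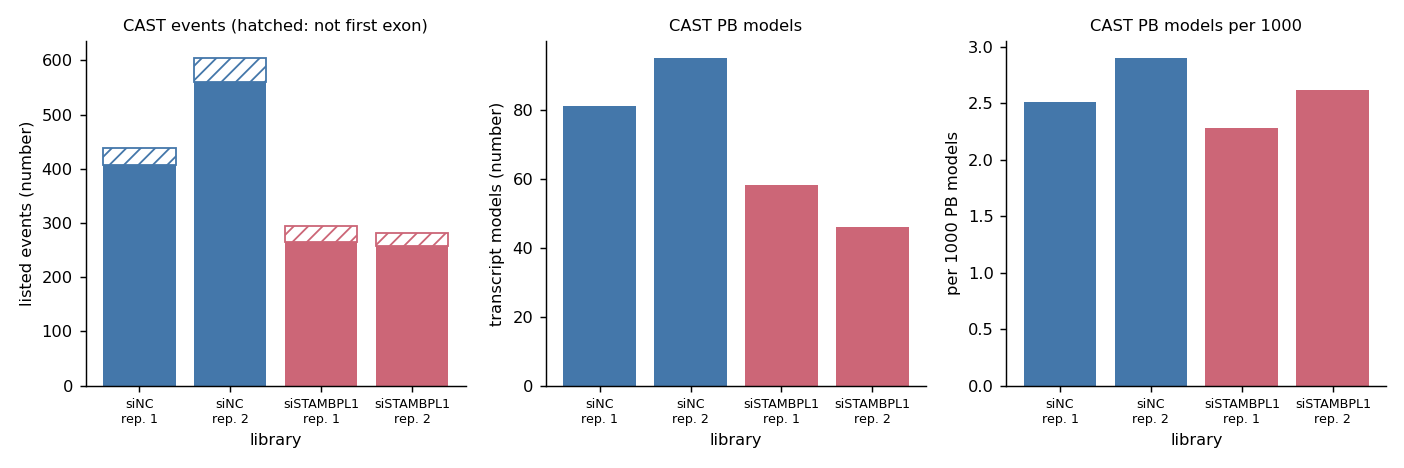
CAST events (left, solid for first exon events and hatched for all others), CAST PB models (middle) and CAST PB models per 1000 PB models of the library (right), 1 bar a library, blue siNC and red siSTAMBPL1. The siNC bars are taller at left, 439 and 605 against 294 and 281. At right the bars of scaled models run from 2.28 to 2.90 and the treatments overlap. Scaled events, which did not overlap, are not plotted.

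All 3 first exons occurred among the CAST models of every library. The shares below are of models and do not measure how much RNA began at each first exon. First exon A began 41 of 81 models in siNC replicate 1 (50.6%, 95% exact Clopper-Pearson interval 39.3 to 61.9%) and 38 of 95 in siNC replicate 2 (40.0%, 30.1 to 50.6%). It began 27 of 58 in siSTAMBPL1 replicate 1 (46.6%, 33.3 to 60.1%) and 18 of 46 in siSTAMBPL1 replicate 2 (39.1%, 25.1 to 54.6%). The 2 treatments overlapped. First exon B had the fewest models of the 3, with 12, 17, 5 and 8, or 14.8%, 17.9%, 8.62% and 17.4%, and the treatments overlapped again. First exon C began 26, 37, 24 and 19 models, or 32.1%, 38.9%, 41.4% and 41.3%. Its share was 35.5 ± 4.84% (SD, n = 2) in siNC and 41.3 ± 0.05% (SD, n = 2) in siSTAMBPL1. The treatments did not overlap in the share of C, but each library's interval contained the shares of the other 3, as the plot of shares shows. Besides these, 1, 1, 2 and 1 models began with an exon that ended at 96662165 and was joined to one of 146 bases ending where A ends. Another 1, 2, 0 and 0 models began elsewhere.

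**Figure D3:**
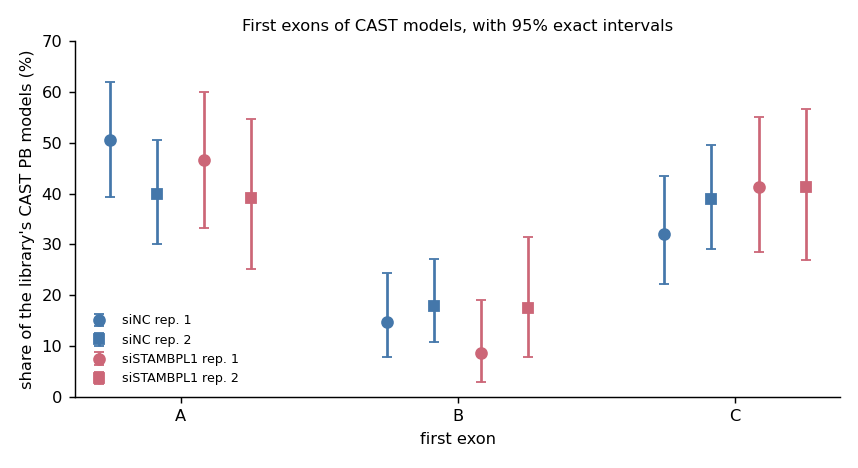
Share of the CAST PB models of each library that began with first exon A, B or C (percent), with 95% exact binomial intervals as bars, blue siNC and red siSTAMBPL1, circles replicate 1 and squares replicate 2. A lies at 39.1 to 50.6%, B at 8.62 to 17.9% and C at 32.1 to 41.4%, with wide overlap of the intervals within each first exon.

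The skipped exon events of CAST concerned 21 distinct exons, each listed in at least 1 library. One of them, the 146-base exon that ends with first exon A, had 0 PB models on its skipping side in each library. Of the 21, 15 had a length that is a multiple of 3, which keeps the reading frame of a coding exon. Of the 10 skipped exons listed in all 4 libraries, 8 had such a length. Where Ensembl transcripts had both forms, 7 of 9 such exons of CAST had such a length, against 41.9% of 23911 over the whole series. For other skipped exons it was 8 of 12 in CAST and 38.7% of 22676 in the series. Lengths were counted with the first and the last base of the exon. The exons scored below were only those with a length that is a multiple of 3 and listed in at least 2 libraries. In the 5' part of the gene they had 63, 72, 60, 66, 42, 57, 81 and 69 bases, in order along the gene. This choice left out other skipped exons of the 5' part, among them 1 of 106 bases listed in all 4 libraries and 1 of 125 bases listed in 2. No protein sequence or domain map was used here, so these exons are placed by position only.

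The exon of 57 bases at 96729153 to 96729209 and the exon of 81 bases at 96730780 to 96730860 were the most variable. In siNC replicates 1 and 2 the 57-base exon was in 44 of 77 (57.1%) and 48 of 91 (52.7%) scored models. In siSTAMBPL1 replicates 1 and 2 it was in 27 of 57 (47.4%) and 24 of 44 (54.5%). The treatments overlapped. The 81-base exon was in 42 of 78 (53.8%), 52 of 91 (57.1%), 30 of 57 (52.6%) and 29 of 44 (65.9%) scored models in the same order, and the treatments overlapped here too. Split by first exon they did not overlap for A and B, in opposite directions. Behind A the 81-base exon was in 19 of 38, 17 of 36, 17 of 27 and 14 of 17 models, with means of 48.6 ± 1.96% (SD, n = 2) in siNC and 72.7 ± 13.7% (SD, n = 2) in siSTAMBPL1. Behind B it was in 8 of 12, 12 of 16, 2 of 5 and 4 of 8, with means of 70.8 ± 5.89% (SD, n = 2) in siNC and 45.0 ± 7.07% (SD, n = 2) in siSTAMBPL1. Behind C it was in 13 of 26, 21 of 36, 10 of 24 and 11 of 19, and the treatments overlapped. The exact intervals of the siNC and siSTAMBPL1 libraries overlapped within A and within B, and the differences were not tested. Such gaps were not particular to this exon. They also occurred for the 66-base exon behind B and C, the 42-base exon behind B and the 69-base exon behind A and C. The 72-base exon of the 3' part had one behind C. Their directions differed, and in most pairings of a scored exon and a first exon the treatments overlapped. Among Ensembl transcripts in the lists, 17 included and 5 skipped the 57-base exon, and 17 included and 4 skipped the 81-base exon.

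The 57-base exon was included more often behind first exon A than behind first exon C in each library. Its share with A was 63.2%, 69.4%, 59.3% and 70.6% in siNC replicates 1 and 2 and siSTAMBPL1 replicates 1 and 2. With C it was 48.0%, 47.2%, 29.2% and 36.8%. The shares with A, 59.3 to 70.6%, did not overlap those with C, 29.2 to 48.0%. Between the treatments the shares overlapped for A but not for C, where siSTAMBPL1 was lower. Nor did they overlap for B, where siSTAMBPL1 was higher, with 7 of 12, 5 of 16, 3 of 5 and 5 of 8 models. The share with A minus that with C was 15.2, 22.2, 30.1 and 33.7 percentage points by library, above 0 in 4 of 4. It averaged 25.3 ± 8.30 (SD, n = 4 libraries of both treatments). The treatments did not overlap, so this SD also holds the gap between them, which was not tested. An exact sign-flip permutation test over the 4 libraries gave a two-sided p of 0.125. This is the smallest p that 4 libraries allow, so the test could not reach 0.05 and decides nothing here. The difference between A and C was 1 of 3 tested in this way, all chosen after their values were seen. Their p adjusted by Benjamini-Hochberg was 0.125 too. Where models with the same junctions counted once, the difference averaged 16.6 points and stayed above 0 in each library, at 13.1, 4.17, 26.3 and 22.6.

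The 81-base exon went with the 57-base exon behind A. Among A models with the 57-base exon, 62.5%, 56.0%, 75.0% and 83.3% also had the 81-base exon. Among A models without it, 28.6%, 27.3%, 45.5% and 80.0% did. The difference averaged 23.9 ± 13.9 points (SD, n = 4 libraries of both treatments) and was above 0 in 4 of 4. It was only 3.33 in siSTAMBPL1 replicate 2, where 5 A models lacked the 57-base exon. The exact sign-flip permutation test gave p = 0.125, again the smallest possible. With models of the same junctions counted once the mean was 11.6 and the value of siSTAMBPL1 replicate 2 was -2.22.

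Behind C the difference had the opposite sign. Among C models with the 57-base exon, 33.3%, 52.9%, 28.6% and 57.1% had the 81-base exon, against 61.5%, 63.2%, 47.1% and 58.3% of those without it. The difference averaged -14.5 ± 11.5 points (SD, n = 4 libraries of both treatments) and was below 0 in 4 of 4. The exact permutation test gave p = 0.125, here too the smallest possible. With models of the same junctions counted once the difference averaged -1.02 and was 0, -16.7, -4.55 and 17.1 by library, so its direction was not kept. The plot of exon shares shows these differences by library.

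**Figure D4:**
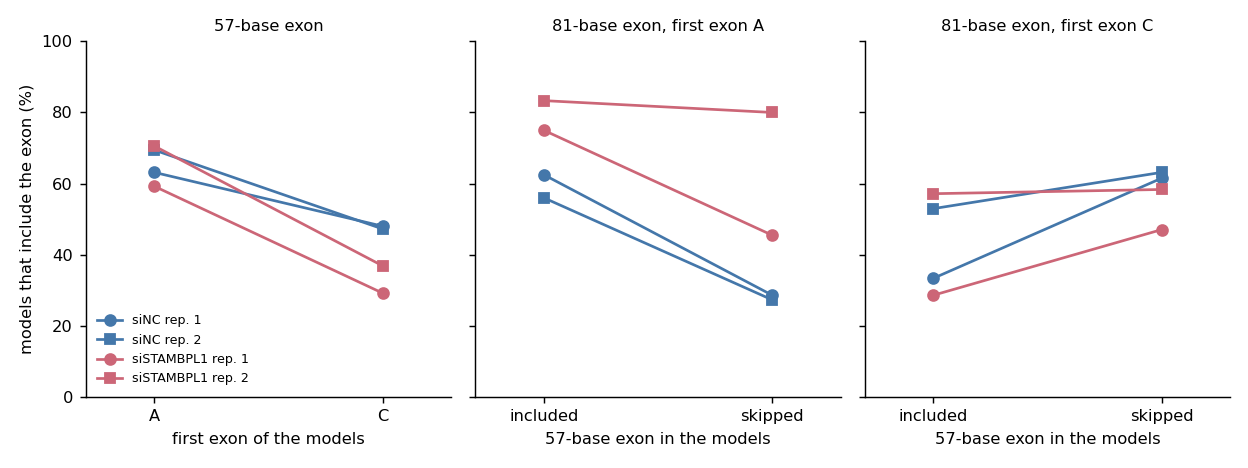
Percent of CAST PB models that include the 57-base exon behind first exons A and C (left), and that include the 81-base exon among models with or without the 57-base exon behind A (middle) and behind C (right), 1 line a library, blue siNC and red siSTAMBPL1. All 4 lines fall from A to C at left and from included to skipped in the middle, and all 4 rise at right.

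The other scored exons of the 5' part were less variable. The 66-base exon at 96726794 was rare, in 7 of 78, 3 of 91, 0 of 57 and 2 of 43 scored models, although 11 Ensembl transcripts included it and 11 skipped it. The 0 of 57 in siSTAMBPL1 replicate 1 has an exact 95% upper bound of 6.27%. This bound takes models as independent, while the 58 CAST models of this library had 39 distinct sets of junctions. Of the 12 models with it, the 57-base exon was present in 7 of 7, 2 of 3 and 2 of 2 in the libraries that had any. The 42-base exon at 96727489 was skipped in 3 of 77, 8 of 91, 6 of 57 and 6 of 44 models. Inclusion was thus 96.1%, 91.2%, 89.5% and 86.4%, higher in both siNC libraries, with intervals that overlap. Of the models that skipped the 42-base exon, 2, 5, 5 and 4 skipped the 57-base exon as well. Among Ensembl transcripts in the lists, 21 included and 1 skipped the 42-base exon.

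Together these exons formed 42 splice patterns over 263 models, of which 13 patterns were found in all 4 libraries and covered 206 models. In these patterns the 5' exons of 60, 63, 69 and 72 bases were entered as included unless their skipping was listed. That holds also for C models, which lack the exons of 63 and 72 bases. In siSTAMBPL1 replicate 2, 0 models were scored for these 2 exons, so the recurrence of patterns rests in part on this rule. The commonest was first exon A with both the 57- and the 81-base exon, with 10, 11, 10 and 8 models. Next was first exon C with the 81-base exon alone, with 7, 10, 7 and 5. First exon A with neither exon had 9, 7, 5 and 1, and first exon C with the 57-base exon alone had 7, 8, 5 and 2. First exon B with the 81-base exon alone, the most frequent pattern missing from a library, had 3, 8, 0 and 1 models. A further 20 patterns were seen in 1 library. The plot of patterns gives the number for each of the 13.

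**Figure D5:**
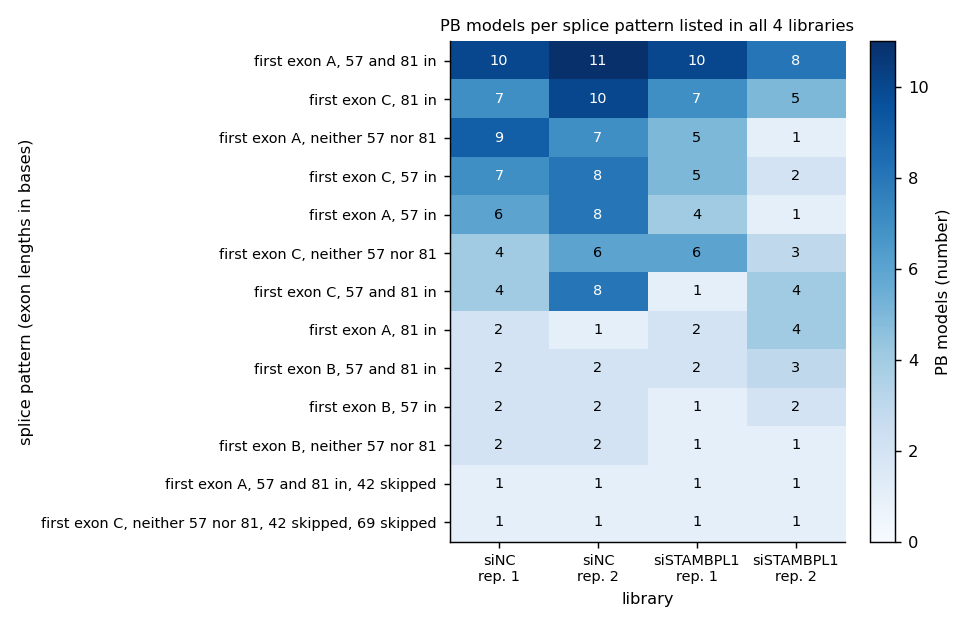
Number of CAST PB models (color and printed number) with each of the 13 splice patterns found in all 4 libraries, by library; patterns are named by first exon and by exon length in bases, and exons of 57 and 81 bases not named are skipped. The pattern of A with both exons has 8 to 11 models in each library, and the last 2 have 1 each. The 5' exons of 60, 63, 69 and 72 bases count as included unless their skipping was listed.

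In the 3' part, 2 choices varied in every library. The 72-base exon at 96770531 to 96770602 was in 62 of 76 (81.6%), 61 of 88 (69.3%), 40 of 55 (72.7%) and 34 of 44 (77.3%) models, and the treatments overlapped. At the exon that begins at 96765221 or 96765224, splice acceptors 3 bases apart, the upstream acceptor was used in 66 of 77 (85.7%), 66 of 89 (74.2%), 46 of 56 (82.1%) and 33 of 44 (75.0%) models. Here too the treatments overlapped, and the replicates of siNC differed more than the treatment means. The exons of 39 bases at 96740745 and 84 bases at 96746342 were skipped in 0 or 1 model a library.

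Few CAST events recurred across libraries. Of the 1180, 919 were listed in 1 library, 142 in 2, 60 in 3 and 59, or 5.0%, in all 4. Where both forms had Ensembl transcripts, 36 of 62 events were in all 4 libraries. The lists named 41, 42, 40 and 40 Ensembl transcripts of CAST and do not say whether each was detected in the library. The recurrence of these events was therefore not shown to come from the reads. Of the 64 events other than first exons, 18 were in all 4. The events shared by exactly 1 pair of libraries numbered 28 for the siNC pair and 17 for the siSTAMBPL1 pair. The mixed pairs, 1 library of each treatment, had 32, 15, 21 and 29.

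The 17 events of the siSTAMBPL1 pair are 1.44% of the CAST events, and over all genes 1.09% of events had this pattern. The 28 of the siNC pair are 2.37%, against 3.44% over all genes. Since the first pattern chose the gene, nothing is read from these shares. Of the 17, 14 were first exon events that came from only 2 starts in A, 96662202 and 96662240. Each start had 1 model in each siSTAMBPL1 library and lay 4 and 2 bases from the nearest start of a siNC library. In the A window printed above these starts are among the capitals in its first part. The siNC pair had 25 first exon events and 3 others. Starts at 96662262, 96662286 and 96662293 were each in 7 of these first exon events, so not all 25 came from them. Each had 1 model in each siNC library, and they lay 3, 1 and 8 bases from a siSTAMBPL1 start.

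The other 3 events of the siSTAMBPL1 pair, 2 skipped exons and 1 pair of mutually exclusive exons, came from models that included the 81-base exon and skipped the exon of 69 bases at 96736172 to 96736240. There were 0, 0, 3 and 1 such models. Models that skipped both exons numbered 3, 2, 3 and 1, so skipping of the 69-base exon itself was listed in each library. When coordinates within 10 bases counted as equal, 3 of the 17 events and 5 of the 28 were left.

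The other genes of the calpain system gave a limited view, because 7 of the 16 on the list had events under a matched symbol. In a limma fit of log2 scaled event numbers over 10004 genes, 0 of the 7 passed an adjusted p of 0.05 and 0 an unadjusted p of 0.05. Over all genes 0 were called in either direction (0% and 0%), and 292 higher (2.92%) and 419 lower (4.19%) had an unadjusted p under 0.05. On the log2 scale 3 of the 7 lay above 0 and 4 below, with a median of -0.29 beside 0.05 over all genes. The large subunit CAPN1 had 112, 132, 76 and 73 events, and its log2 change was -0.29 ± 0.24 (SE, limma adjusted p = 0.758). The large subunit CAPN2 had 64, 44, 30 and 20 events, with a log2 change of -0.69 ± 0.31 (SE, limma adjusted p = 0.758). The raw numbers of both were lower in both siSTAMBPL1 libraries, as were those of 25.3% of all genes other than CAST. CAPN10 had 10, 21, 23 and 11 events, CAPN7 had 7, 9, 6 and 10, and CAPN5 had 4 in each library, with 0 PB models. CAPN3, the muscle calpain, had 21 events in siNC replicate 1 and 0 elsewhere, and the small subunit CAPNS1 had 9 in siNC replicate 2 and 0 elsewhere.

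Of 12 calpain substrates 11 were tested and 0 passed, with a median log2 change of -0.23. The focal adhesion protein PXN had 196, 195, 159 and 61 events and the focal adhesion kinase PTK2 124, 176, 114 and 78. The spectrin SPTAN1 had 35, 41, 31 and 37. Of 7 neighbours of CAST, 5 had events under a matched symbol and 4 were tested. ERAP2, an aminopeptidase that trims peptides for antigen presentation, had 7, 6, 0 and 0 events, with an adjusted p of 0.418 in the limma fit. Among 499 other genes with at least 100 distinct events, the 5 whose shares of events by library were most like those of CAST were HDGF, USP36, FAM76B, GGT1 and SETD4. The measure was the Euclidean distance over the 4 libraries, 3.18 percentage points for HDGF and 6.50 for SETD4. CAST had 37.2%, 51.3%, 24.9% and 23.8% of its distinct events in the 4 libraries, and HDGF 36.3%, 51.4%, 23.3% and 21.2%.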

How the data were processed

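Libraries of both treatments, 2 each, were analysed. Each deposited file is a list of events with transcript identifiers and no quantity, per the file headers. The submitters' processing notes name hg38; which aligner and callers were used is not given in the sources used here. Junctions and starts of each PB model were read from the event coordinates of CAST. For the exon shares, a model was scored for an exon only where its listed junctions include or skip it. In the splice patterns, 5' exons of 60, 63, 69 and 72 bases were instead entered as included unless their skipping was listed. CAST, the gene lists and the comparisons were chosen with earlier results of these data known. Named are CAST, the calpain, substrate, neighbour, target and marker lists, and the 5 genes most like CAST by library shares.

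Event numbers per gene were scaled by library total and tested as log2(scaled events + 1) with limma 3.58.1 in R 4.3.3, for genes with at least 5 events, with Benjamini-Hochberg adjustment. A check on simulated data required only the right direction for the larger changes. It set no condition on power, so a gene that was not called was not shown to be unchanged. Symbols came from RefSeq genes of GRCh38.p14 by position. A match needed 60% or more of a gene's positions inside the RefSeq span widened by 50 bases, 20% or more of that span covered, and a score 1.5 times the next gene's. A listed symbol with several Ensembl genes in its span was left unmatched. Of 12300 identifiers 10904 had 1 symbol. Shares carry 95% exact intervals, computed in Python 3.11.15 with scipy 1.17.1.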

Additional observations from a re-analysis of the deposited data

How the results depend on the processing

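The log2 ratio of CAST events, siSTAMBPL1 over siNC, was -0.86. It was -0.41 for events with Ensembl transcripts in both forms and -0.44 after scaling by the library total, and -1.07 to -0.61 with 1 library left out. The log2 ratio of distinct first exon starts was -0.53, and -0.0525 with starts within 10 bases grouped, and -0.66 to -0.39 with 1 library left out. The 17 events of the siSTAMBPL1 pair became 3 when coordinates within 10 bases counted as equal, 0 with Ensembl transcripts in both forms, and 3 with first exon events reduced to their splice junctions. The 28 events of the siNC pair became 5, 5 and 3 in the same order. The reduction to junctions and all settings of the 57- and 81-base exon differences were chosen after seeing the data. Without 1 library these differences ran from 22.5 to 28.7, from 20.5 to 30.7 and from -19.0 to -9.96 points.

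In the limma fit 0 genes, and 0 calpain genes, were called under each of the 10 alternatives, and the smallest adjusted p ran from 0.0619 to 0.827 over all genes. The replicate number as a block also gave 0 calls. The numbers were not shown to pair the libraries, since the replicate difference correlated at r = 0.0182 between treatments across genes.

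Without read numbers the depth is unknown, so a form missing from a list was not shown to be missing from the cells.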
